A study of Mus musculus with 24 samples.

Results

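This account describes what 4 days without doxycycline did to ear fibroblasts of 3-month-old mice in which the reprogramming factors OCT4, SOX2 and KLF4 (together OSK) had been switched on for 6 days. The comparison took in 8 of the series' 24 libraries, chosen by their labels: 4 of the withdrawal group, which received doxycycline for 6 days and then none for 4 days, and 4 of the OSK group, which received it for 6 days. All of these cells came from mice with an OSK transgene that doxycycline induces. A further 4 libraries of untreated cells from 3-month-old mice gave the untreated level, and the withdrawal and OSK groups at 24 months, with 4 libraries each, gave the same contrast at an older age. The promoter that drives the transgene, the number of animals behind the libraries and the harvest day of the OSK group were not given in the sources used here, so the withdrawal of doxycycline and 4 more days in culture cannot be told apart. The design text names this series as the one used to find genes that OSK changes and to follow Gsta4, which encodes a glutathione S-transferase, when OSK is on and then off.

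OCT4 (gene Pou5f1), SOX2 and KLF4 are transcription factors that bind regulatory DNA together and can push a differentiated cell towards a pluripotent state. In fibroblasts their expression is known to lower the genes of connective tissue matrix and to raise genes of epithelial and early embryonic cells, and a short pulse that ends before stable pluripotency is called partial reprogramming. When doxycycline is taken away the inducible transgene loses its drive, and cells that have not reached a self-sustaining pluripotent state are known to turn back towards the fibroblast program.

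RNA was measured by sequencing of polyadenylated transcripts, and values are the deposited normalized counts, which are read counts scaled to a common depth. The total number of reads assigned to genes, recovered from the scaled values, was 25445933 to 30524970 in the OSK libraries and 20693177 to 32587822 in the withdrawal libraries. Genes that reached 10 normalized counts in 4 or more libraries were tested, which left 14138 of 26206 genes, and was called when the limma p-value adjusted by the Benjamini-Hochberg method was under 0.05. Nothing in the labels says that replicates came from separate animals or cultures, so p-values measure the spread between these libraries only. The withdrawal libraries lay in pairs: a chi-square statistic of the counts per degree of freedom was 48.5 between replicates 1 and 2 and 44.7 between replicates 3 and 4, against 119.6 to 187.2 for the other pairs, while pairs of OSK libraries gave 29.7 to 53.7. The library names of replicates 1 and 2 end in b1 and b2 and those of replicates 3 and 4 in C and E, in all groups at 3 months; what these endings stand for was not given in the sources used here. Counts that lead a paragraph were therefore also computed without either pair, an alternative added after the data were seen, and are given where they differ by more than 1.5 times. Fibroblast markers were abundant in both groups (the summed level of 12 genes was 737887 to 867978 in OSK and 874040 to 961912 in withdrawal libraries). Cartilage genes were abundant too, with a summed level of 555967 to 857606 in untreated libraries, so the untreated cultures labelled as ear fibroblasts held many cartilage transcripts. In RNA from bulk cultures, fewer cells of a type and less RNA per cell cannot be told apart.

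A large share of the transcriptome differed between withdrawal and OSK libraries. Of the 14138 genes tested, 5988 (42.4%) were called, 2909 (20.6%) of them higher and 3079 (21.8%) lower after withdrawal than in OSK cells. Values of the groups did not overlap for 5487 genes (38.8%). Among called genes 1084 were higher and 1461 lower by at least 2-fold on the log2(value + 1) scale, and 489 were higher and 656 lower by at least 4-fold. The median change of all tested genes was 0.01 on the log2 scale. With either withdrawal pair left out the count was 4400 (replicates 3 and 4 alone) or 6433 (replicates 1 and 2 alone). The first principal component of the 12 libraries at 3 months, with 56.5% of the variance, parted the OSK libraries (scores of -79.4 to -101.5) from all others.

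The factors themselves came first as a check of the labels. Pou5f1 (GRCm38.p6 chr17:35506032-35510777) stood at 2058, 3713, 3392 and 2844 normalized counts in OSK replicates 1 to 4, and at 6.67, 2.94, 12.8 and 9.25 after withdrawal. Sox2 (chr3:34649995-34652461) stood at 3034, 3856, 3296 and 2607 in OSK cells and at 20, 2.94, 6.41 and 2.52 after withdrawal. Both genes thus overlapped with untreated cells, where Pou5f1 was at 1.89 to 9.33 and Sox2 at 6.04 to 20.3. On the log2 scale Pou5f1 changed by -8.50 (limma adjusted p = 1.25e-09, SE 0.606) and Sox2 by -8.86 (limma adjusted p = 8.22e-11, SE 0.524). Klf4 (chr4:55527137-55532475), which fibroblasts express without a transgene, behaved otherwise. It fell from 4803, 7044, 5877 and 4541 to 452, 579, 822 and 805, a log2 change of -3.08 (limma adjusted p = 1.1e-07, SE 0.312). These withdrawal values all lay under those of untreated cells, at 2827, 2683, 2899 and 1485, and the difference from untreated cells was -1.89 (limma adjusted p = 0.000611). In an exact two-sided permutation test over the 70 arrangements of 4 against 4 libraries, p was 0.0286 for Pou5f1, Sox2, Klf4 and Gsta4 alike, the smallest value that this test allows. The arrangements take no account of a pairing by replicate number. Reads of the transgene and of the cell's own copy of a factor could not be separated in gene counts.

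**Figure D1:**
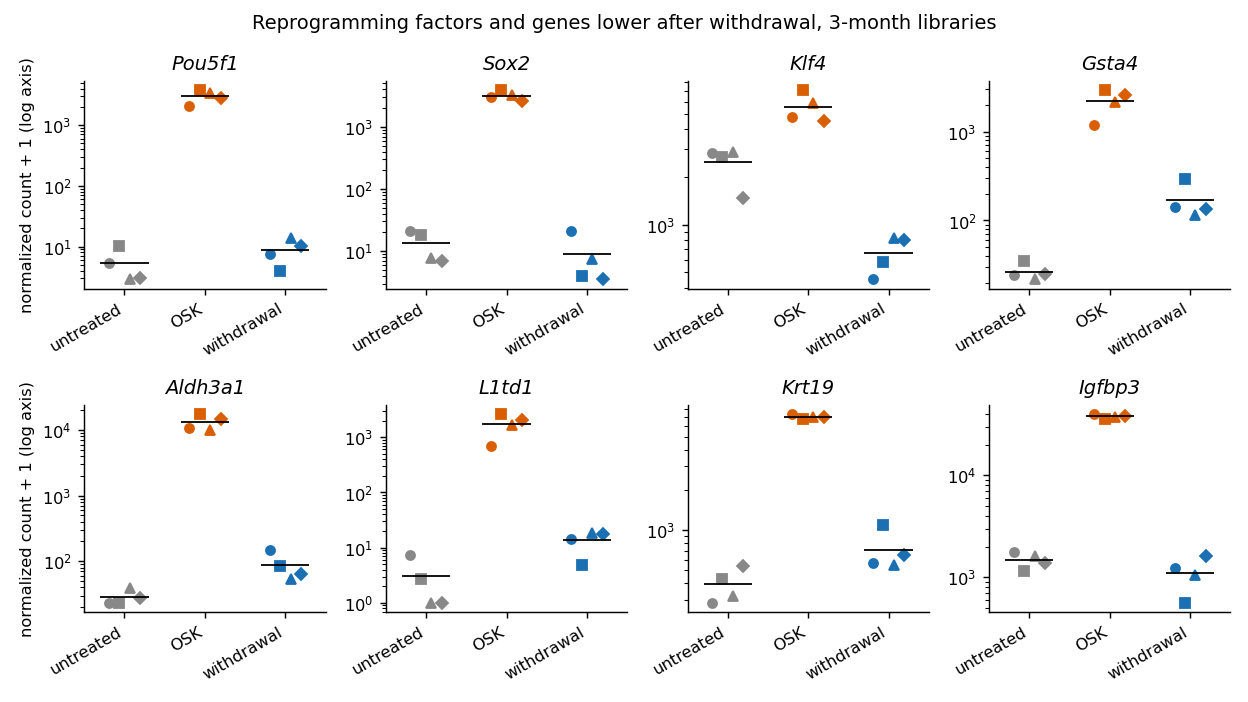
Normalized counts plus 1 (log axis) of 8 genes in each 3-month library, by group; symbols mark replicates 1 to 4 (circle, square, triangle, diamond) and the bar marks the mean of 4 libraries. In all 8 panels the OSK libraries lie above every withdrawal library; Klf4 after withdrawal lies under all untreated libraries, and Gsta4 and Aldh3a1 lie above them.

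Gsta4 (chr9:78191966-78209349) encodes an enzyme that joins glutathione to the reactive aldehydes left by lipid peroxidation. It stood at 1199, 2899, 2129 and 2563 normalized counts in OSK replicates 1 to 4 and at 141, 289, 113 and 133 after withdrawal. All withdrawal libraries were thus under every OSK library, yet above every untreated library, which held 23.5, 34.0, 20.8 and 24.2. The fall was -3.72 on the log2 scale (limma adjusted p = 2.26e-09, SE 0.281), and the level that remained was 2.60 above untreated cells (limma adjusted p = 1.02e-05).

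Gsta4 did not fall alone in its family. Of 24 cytosolic glutathione S-transferase genes listed, 22 were in the table and 16 were tested; 10 of these fell and 1 rose, against 21.8% and 20.6% of all tested genes, with a median log2 change of -1.23. Gsta3 fell from 171 to 214 normalized counts in the OSK libraries to 0, 4.90, 1.07 and 0. Gstm7 fell from 416 to 725 down to 99.3 to 155 (log2 change -2.07), and Gstt3, of the theta class, from 3160 to 3980 down to 919.7 to 1217 (-1.73). None of these 3 overlapped between the groups, and neither did 38.8% of all tested genes. The count of falling members was 9 to 10 when each of the 8 libraries was left out in turn, while 0 to 3 members rose: none without any 1 of the OSK libraries or without withdrawal replicate 1 or 2, 2 without replicate 3 and 3 without replicate 4.

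Of 31 listed genes for enzymes that handle aldehydes and other carbonyls 27 were tested, and 12 fell and 5 rose, with a median of -0.16, where 21.8% of all tested genes fell and 20.6% rose; without withdrawal replicates 3 and 4 the counts were 7 and 8, and 3 members rose without withdrawal replicates 1 and 2, without replicate 1 alone or without OSK replicate 2. Aldh3a1 (chr11:61208510-61218418), an aldehyde dehydrogenase of cornea and stomach, made the largest fall of the list, and its 4 OSK libraries stood at 10802, 17472, 10031 and 14992 normalized counts. After withdrawal they stood at 145, 82.3, 52.3 and 63.0, against 22.1 to 37.9 in untreated cells. That is a log2 change of -7.34 (limma adjusted p = 1.74e-14, SE 0.260), and the withdrawal level stayed 1.55 above untreated cells (limma adjusted p = 0.000685). Akr1c14, an aldo-keto reductase that acts on steroids, fell from 2903 to 5532 down to 524 to 1039 (log2 change -2.38).

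A list of targets of NRF2, the transcription factor of the oxidative stress response, and of genes of glutathione or thioredoxin metabolism held 6 rises and 11 falls among 32 tested genes, with a median of -0.10. Over all tested genes 20.6% rose and 21.8% fell, so the rises were no more frequent than the background. Gsr, which regenerates reduced glutathione, fell from 1775 to 2136 down to 340.5 to 547 normalized counts (log2 change -2.19), and Ephx1, an epoxide hydrolase, fell by 1.53. Nqo1, a quinone reductase often used as a readout of NRF2, rose from 783 to 1194 up to 4191 to 5818 (2.33), and the peroxidase gene Gpx3 (1.75) and catalase, Cat (1.14), rose too. None of these 5 genes overlapped between groups, and neither did 38.8% of all tested genes. A fall of glutathione transferases was thus found beside a rise of Nqo1 in the same libraries.

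Few transcription factors of pluripotent cells were expressed well enough to be tested. Of 28 transcription factors and cofactors of the pluripotent state 9 were tested, and 3 fell and 1 rose; of 18 signalling, surface and metabolic genes 13 were tested, and 3 fell and none rose. Over all tested genes 21.8% fell. With the replicate number as a block the latter counts were 5 and 1, and without withdrawal replicates 1 and 2 only 1 of the former fell. L1td1, an RNA-binding protein of embryonic stem cells, fell from 700.3, 2611, 1663 and 2081 normalized counts to 13.3, 3.92, 17.1 and 16.8 (log2 change -7.01 with an SE of 0.715, limma adjusted p = 1.19e-07). Tdh, the threonine dehydrogenase of mouse stem cells, fell from 24.4 to 173 down to at most 5.34, and the growth factor gene Fgf4, a target of OCT4 and SOX2, from 31.0 to 110.0 down to at most 4.20. Nanog, named here after its values were seen, held 0 to 12 normalized counts in OSK libraries and 6.73 to 16.0 after withdrawal and was not called (limma adjusted p = 0.2). Klf2, a KLF4 relative, was the 1 riser, from 512 to 1049 up to 2484 to 3642 (2.20).

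Among 30 epithelial genes, 19 were tested and 4 fell: Krt19, Pkp2, Krt18 and Krt8, while none rose, which is near the share of all tested genes called lower (21.8%). Krt19, a keratin of simple epithelia, fell from 7376, 6808, 7054 and 7053 normalized counts to 568, 1090, 548 and 646 (log2 change -3.37 with an SE of 0.249, limma adjusted p = 1.72e-09). Its OSK libraries were nearly level, and withdrawal replicate 2 was the highest of its group. Pkp2, a desmosome protein, changed by -2.54 and Krt18, which pairs with Krt8, by -2.35. Krt8 changed by -1.21 (limma adjusted p = 0.0396) with overlapping groups, and its call was lost with edgeR, with no filter on low values, with a prior neither trended nor robust, without OSK replicate 1, 2 or 4 and without withdrawal replicate 3 or 4 or both. The other 15 tested genes were not called, and the median over the list was -0.08. That median joins libraries that went opposite ways. In log2 units from the untreated mean, the list median was 1.02 and 1.52 in withdrawal replicates 1 and 2. It was 0.22 and 0.23 in replicates 3 and 4, and 0.55 to 0.89 in OSK libraries. Without withdrawal replicate 2, and without replicates 1 and 2, 6 members fell.

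Genes of cell division fell together. All 25 genes of the mitosis list were tested and all 25 fell, with a median log2 change of -3.01, and 22 of 25 DNA replication genes fell (median -1.33) while none rose, where 21.8% of all tested genes fell. The mitosis count was 25 in each of the 8 fits without 1 library and without either withdrawal pair. Mki67, the antigen used to mark cycling cells, stood at 4941, 4956, 7688 and 6005 normalized counts in OSK replicates 1 to 4 and at 687, 182, 339 and 1012 after withdrawal. Its log2 change was -3.67 (limma adjusted p = 4.03e-07, SE 0.409). Cenpe, a kinesin that moves chromosomes, went from 1087, 1137, 1672 and 1463 to 155, 48.0, 79.0 and 282 (-3.52), and Cenpf, a kinetochore protein, from 1489, 1718, 2652 and 2232 to 291, 78.4, 131 and 377 (-3.42). Bub1, a kinase of the spindle checkpoint, fell by 3.27. Withdrawal replicates 2 and 3 were the lowest for all 4 genes, and no withdrawal library reached an OSK library.

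Replication genes had smaller changes by the median. Uhrf1, which brings the maintenance DNA methyltransferase to replicated DNA, fell from 949.5 to 1239 down to 183, 98.0, 70.5 and 209 normalized counts (log2 change -3.12). Mcm5, a subunit of the replicative helicase, fell from 1464, 1223, 1688 and 1866 to 259, 143, 129 and 372 (-2.90). Cdc6, which loads that helicase, changed by -2.67 and Rrm2, a subunit of ribonucleotide reductase, by -2.62. The fall went past the level of untreated cells: all 25 mitosis genes and 17 of the 25 replication genes were called lower than in untreated cells, where 5.57% of all tested genes were. Mki67 stood at 1972 to 3525 in untreated cells, above every withdrawal library.

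The promoters of these 2 groups differ in their known cell-cycle elements, so 4 of them are shown. Transcription of mitotic genes peaks late in the cycle through a cell-cycle homology region, TTTGAA, often beside CCAAT boxes, and that of replication genes peaks earlier through E2F sites, here written TTTNNCGC. The 200 bases before the RefSeq start are printed 5' to 3' on the gene's strand (build GRCm38.p6), with matches to any of the 3 motifs on either strand in capitals.
Mki67 (chr7:135716380-135716579, minus strand): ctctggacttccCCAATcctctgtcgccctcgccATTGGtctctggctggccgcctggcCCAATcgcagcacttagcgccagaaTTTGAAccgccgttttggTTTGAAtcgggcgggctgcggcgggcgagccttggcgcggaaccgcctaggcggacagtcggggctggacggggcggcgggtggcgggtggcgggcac
Cenpf (chr1:189688087-189688286, minus strand): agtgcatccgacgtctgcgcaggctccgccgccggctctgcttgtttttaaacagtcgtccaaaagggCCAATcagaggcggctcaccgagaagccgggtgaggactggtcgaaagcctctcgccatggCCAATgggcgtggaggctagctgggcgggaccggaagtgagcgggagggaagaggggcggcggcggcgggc
Mcm5 (chr8:75109309-75109508, plus strand): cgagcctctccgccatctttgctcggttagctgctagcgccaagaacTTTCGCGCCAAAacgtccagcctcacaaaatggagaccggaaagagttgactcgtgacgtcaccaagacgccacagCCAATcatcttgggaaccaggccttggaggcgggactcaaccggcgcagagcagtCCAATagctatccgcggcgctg
Uhrf1 (chr17:56303137-56303336, plus strand): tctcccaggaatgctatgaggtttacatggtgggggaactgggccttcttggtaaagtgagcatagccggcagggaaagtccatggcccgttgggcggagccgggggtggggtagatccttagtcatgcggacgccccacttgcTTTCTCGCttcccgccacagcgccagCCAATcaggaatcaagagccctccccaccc
The Mki67 promoter held TTTGAA 116 and 98 bases before the start and 3 CCAAT matches at 188, 166 and 141 bases, while Cenpf held CCAAT at 132 and 71 bases in the stretch shown. In Mcm5 2 overlapping E2F matches began 153 and 149 bases before the start, and in Uhrf1, for the first of its 2 listed promoters, 1 began at 56 bases. Over the window from 250 bases before to 50 after the start, TTTGAA was in 14 of 20 mitosis promoters (70%), 2 of 20 replication promoters (10%) and 11.9% of the 11172 promoters of tested genes. The E2F motif was in 1 of 20 mitosis promoters (5%), 10 of 20 replication promoters (50%) and 8.5% of all. CCAAT was in 80% and 70% of the 2 lists and in 39% of all. TTTGAA was in 111 of 481 promoters (23.1%) of genes called lower by at least 4-fold and in 42 of 345 (12.2%) of genes called higher by as much. A match is a description of the letters and not of a bound site.

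Of 30 genes of cell-cycle inhibitors, p53 targets and secreted products linked to senescence, 3 rose and 8 fell, with a median of -0.09, where 20.6% and 21.8% of all tested genes did. Against untreated cells 6 of the 30 were called higher and 5 lower, where 4.01% and 5.57% of all genes were. Cdkn1a, the inhibitor p21, rose from 2573 to 3228 up to 3514 to 4758 normalized counts (log2 change 0.57, limma adjusted p = 0.0396), a call lost with no filter on low values, with a prior neither trended nor robust, without OSK replicate 1, 3 or 4, without withdrawal replicate 1, 2 or 3 and without withdrawal replicates 1 and 2. Lmnb1, a lamina gene whose loss is used as a mark of senescence, fell from 1207 to 1578 down to 226 to 499 normalized counts (log2 change -2.02), and Cdkn2d, an inhibitor of CDK4 and CDK6, fell by 1.61. Cdkn2a, the p16 and p19ARF locus, named after its values were seen, held 1004 to 1301 in OSK and 1035 to 2085 in withdrawal libraries and was not called (0.48, limma adjusted p = 0.194), though it was 1.98 above untreated cells (limma adjusted p = 0.000289). The chemokine gene Ccl2 fell from 235, 336, 236 and 233 to 5.34, 5.88, 3.20 and 3.36 (-5.60, SE 0.370), and its difference from untreated cells was -2.36 (limma adjusted p = 0.000437). Igfbp3 and Igfbp5, which bind insulin-like growth factors, went opposite ways. Igfbp3 (chr11:7206086-7215498) fell from 39646, 35684, 37466 and 38423 to 1219, 559, 1056 and 1604 (-5.19), and Igfbp5 rose from 6482, 15500, 73769 and 14491 to 57382, 160382, 463104 and 247951 (3.32 with an SE of 0.607, limma adjusted p = 0.000149). OSK replicate 3 of Igfbp5 lay above withdrawal replicate 1, and for this gene replicate 3 was the highest library of both groups.

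Predicted genes, clones, pseudogenes and mitochondrial genes were left out of rankings over all genes. Among the other called genes with a mean of at least 50 in a group and no overlap between groups, the 4 largest fitted rises were those of cartilage genes. Of 30 listed genes 29 were tested, and 21 rose and 1 fell, with a median log2 change of 3.53, against 20.6% of all tested genes called higher. Over the 8 fits without 1 library 21 to 22 members rose. Next to Matn3, Col9a3, Col11a2 and Col9a2, chains of the type IX and XI collagens of cartilage fibrils, had the highest fitted changes of the list. Col2a1, the major collagen of cartilage, stood at 3276, 4948, 9749 and 6263 normalized counts in OSK replicates 1 to 4 and at 144520, 99253, 169927 and 117728 after withdrawal (4.54 with an SE of 0.576, limma adjusted p = 2.22e-06). Col9a3 went from 46.9, 15.2, 87.2 and 34.4 to 10125, 12993, 10974 and 7506 (8.01, SE 0.671), Col11a2 from 32.9 to 103 up to 10871 to 19006 (7.92), and Col9a2 from 8.03 to 33.9 up to 2823 to 5604 (7.65). Every withdrawal library of these genes was far above every OSK library. Matn3 (chr12:8947929-8972028), a matrilin of growth cartilage, held no more than 3 reads in any OSK library and 1058, 364, 615 and 346 normalized counts after withdrawal, at least 221-fold higher against a floor of 3 reads per library.

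Sox9, the transcription factor that drives cartilage genes, and 2 further cartilage genes are named here after their values were seen. Sox9 rose from 2782, 2239, 2678 and 2303 to 13236, 12521, 15221 and 12135 (log2 change 2.41 with an SE of 0.205, limma adjusted p = 1.16e-08). Acan, the large proteoglycan of cartilage, rose from 272 to 935 up to 15600 to 33229 (5.47), and Cnmd, which keeps vessels out of cartilage, from 2330 to 5192 up to 51085 to 73097 (4.39). Runx3 was the member that fell, from 53.8 to 220.3 down to 7.84 to 34.7 (-2.34, limma adjusted p = 0.00829); without withdrawal replicates 1 and 2 its adjusted p was 0.0627, and with the replicate number as a block 2 members fell. Against untreated cells 0 of the 29 members were called in either direction, where 4.01% of all tested genes were called higher and 5.57% lower. The median over the list in single libraries was -3.57 to -4.59 log2 units from the untreated mean in OSK cells and -0.27 to -0.77 in withdrawal cells. Withdrawal libraries thus lay far nearer to untreated ones than OSK libraries did, but not every gene reached the untreated level. Col2a1 was higher in every untreated library (184662 to 339165) than in any withdrawal library. So were Acan (40452 to 73763 in untreated libraries), Col9a2 (5946 to 14616) and Matn3 (1225 to 3054). Sox9 was lower in every untreated library (8882 to 11007) than in any withdrawal library.

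**Figure D2:**
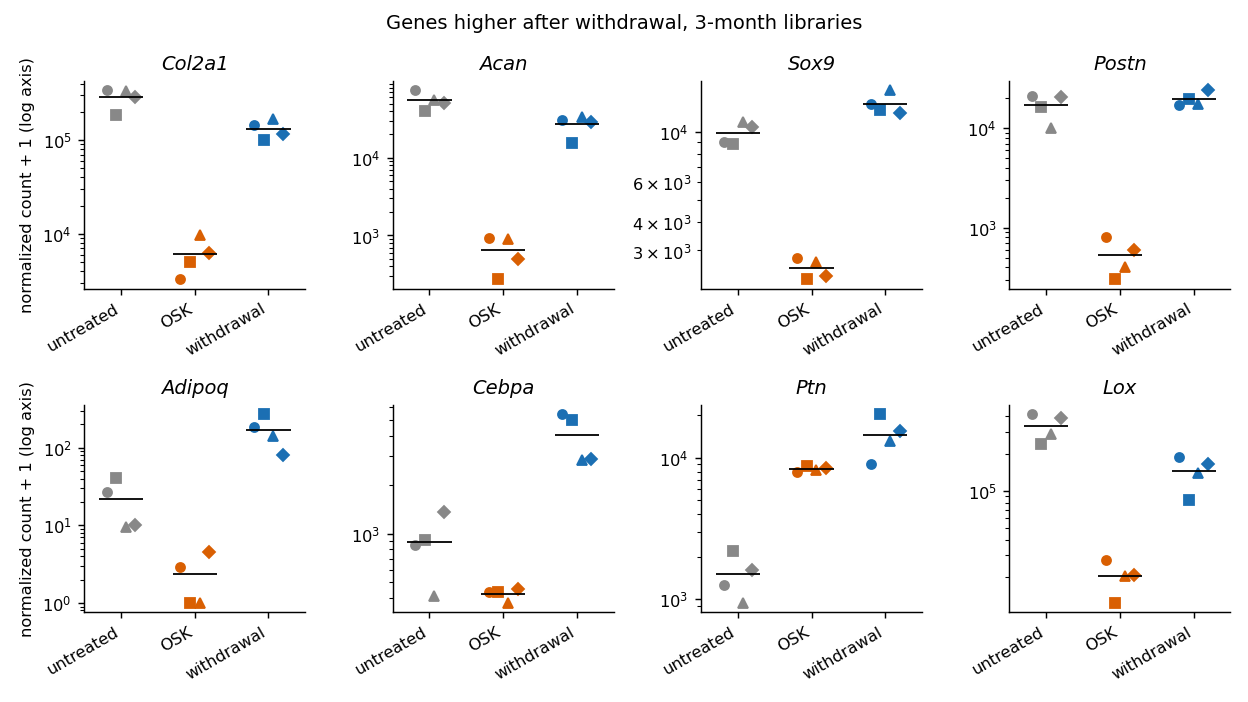
Normalized counts plus 1 (log axis) of 8 genes in each 3-month library, by group; symbols mark replicates 1 to 4 (circle, square, triangle, diamond) and the bar marks the mean of 4 libraries. Col2a1, Acan and Lox rose from OSK to withdrawal but stayed under all untreated libraries, and Postn rose to values that overlapped the untreated ones. Sox9, Adipoq, Cebpa and Ptn stood above all untreated libraries in all 4 withdrawal libraries.

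Part of the general fibroblast matrix also rose. Of 26 non-collagen matrix genes 15 rose and 1 fell (median 0.99), and of 22 genes of fibrillar collagens and their enzymes 10 rose and 1 fell (median 0.63), while the other 10 and 11, Col1a1 among them, were not called. Over all tested genes 20.6% rose and 21.8% fell. Each single fall was lost in part of the 8 fits without 1 library, and 12 to 15 and 10 members rose in them. Postn, a matricellular protein of connective tissue, went from 807, 303, 405 and 595 normalized counts to 17003, 19807, 17527 and 23853 (log2 change 5.29 with an SE of 0.330, limma adjusted p = 1.7e-10). Lum, a proteoglycan of collagen fibrils, rose from 973 to 2256 up to 11422 to 16225 (3.44), which was 1.22 above untreated cells (limma adjusted p = 0.0219). Mfap4, a microfibril protein, rose by 3.92 from at most 4.01 normalized counts. Plod2, which hydroxylates collagen lysines, rose by 1.77.

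Lox, the lysyl oxidase that cross-links collagen and elastin, went from 27661, 12346, 20442 and 20719 to 188865, 83959, 138591 and 163817 (log2 change 2.82 with an SE of 0.25, limma adjusted p = 1.73e-08). Its untreated libraries stood at 416459, 237128, 285475 and 385270, and the difference from them was -1.23 (limma adjusted p = 0.00281). Eln, elastin, rose from 51.6 to 364 up to 1009 to 1908 (3.01) and its difference from untreated cells was -3.03 (limma adjusted p = 0.00521; 0.0884 without withdrawal replicates 1 and 2), where it ranged from 7354 to 26709. Replicate 4 was the highest untreated library for Eln. Fbln5, which helps to assemble elastic fibres, fell instead by 0.55.

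Fibroblast identity genes moved in both directions: 4 of 12 rose and 2 fell, with a median of 0.04 and a range from Thy1 at -2.47 to Lum at 3.44. The share of all tested genes was 20.6% for rises and 21.8% for falls, and the falls of this list numbered 1 without withdrawal replicate 3 and 3 without replicate 4. Col3a1 rose from 76986, 86064, 78822 and 90235 to 185666, 178170, 194841 and 176491 (log2 change 1.15, limma adjusted p = 4.34e-05), while Col1a1 held 162637 to 230387 in OSK and 109309 to 171870 in withdrawal libraries and was not called (-0.35, limma adjusted p = 0.339). Dcn rose by 1.03 and Vim, vimentin, by 0.56 (limma adjusted p = 0.0123; 0.129 without withdrawal replicates 1 and 2). Thy1, a surface marker of fibroblasts, fell from 19446 to 24689 down to 3104 to 4726 (-2.47). Among 25 mesenchymal transcription factor and surface genes 7 rose and 4 fell (median 0.07), and 3 to 5 rose in the 8 fits without 1 library. Contractile genes gave 2 rises and 2 falls among 18, fewer than the background shares would give, or 4 rises with the replicate number as a block; 1 fell when any single library other than OSK replicate 1 was left out. Cnn1, a calponin, rose from 27.3 to 121 up to 820.1 to 1556 (4.42), and Actg2, an actin of visceral smooth muscle, fell from 1218 to 2819 down to 44.9 to 122 (-4.78).

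Most tested markers of adipocytes rose. Of 14 listed genes 12 were tested, and 10 rose and none fell, against 20.6% and 21.8% of all tested genes, with a median of 3.05; 7 to 10 rose in the fits without 1 library, and 6 without withdrawal replicates 1 and 2. Adipoq, the hormone adiponectin, went from 1.87, 0, 0 and 3.52 normalized counts to 185, 269, 142 and 79.9 (log2 change 6.36 with an SE of 1.34, limma adjusted p = 0.000596), with 8.52 to 39.9 in untreated cells. Plin1, which coats lipid droplets, went from 0.940 to 7.93 up to 171 to 432 (5.61). Cfd, the secreted protease adipsin, rose by 4.22 (limma adjusted p = 0.0142; 0.103 without withdrawal replicates 1 and 2). Cebpa, a transcription factor of adipocyte differentiation named after its values were seen, rose from 435, 433, 373 and 455 to 5440, 5030, 2857 and 2878 (3.19 with an SE of 0.393, limma adjusted p = 1.46e-06) and was 2.26 above untreated cells (limma adjusted p = 0.000959). Pparg, the nuclear receptor that works with it, held 1024 to 1483 in OSK and 1791 to 2201 in withdrawal libraries; its change of 0.60 was not called (limma adjusted p = 0.215), and was called with the replicate number as a block (limma adjusted p = 0.00486) as well as, without a block, with only the groups compared (0.00572) or only the 3-month libraries (0.003) in the fit. The summed level of the list was 5850 to 9218 in OSK, 20858 to 27573 in withdrawal and 10222 to 21874 in untreated libraries, so withdrawal and untreated sums overlapped. Against untreated cells the list had a median of 1.46, and 2 of the 12 members were called higher, where 4.01% of all tested genes were. The median over the list was 0.93 to 2.09 in single withdrawal libraries and -0.81 to 0.52 in untreated ones, relative to the untreated mean.

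**Figure D3:**
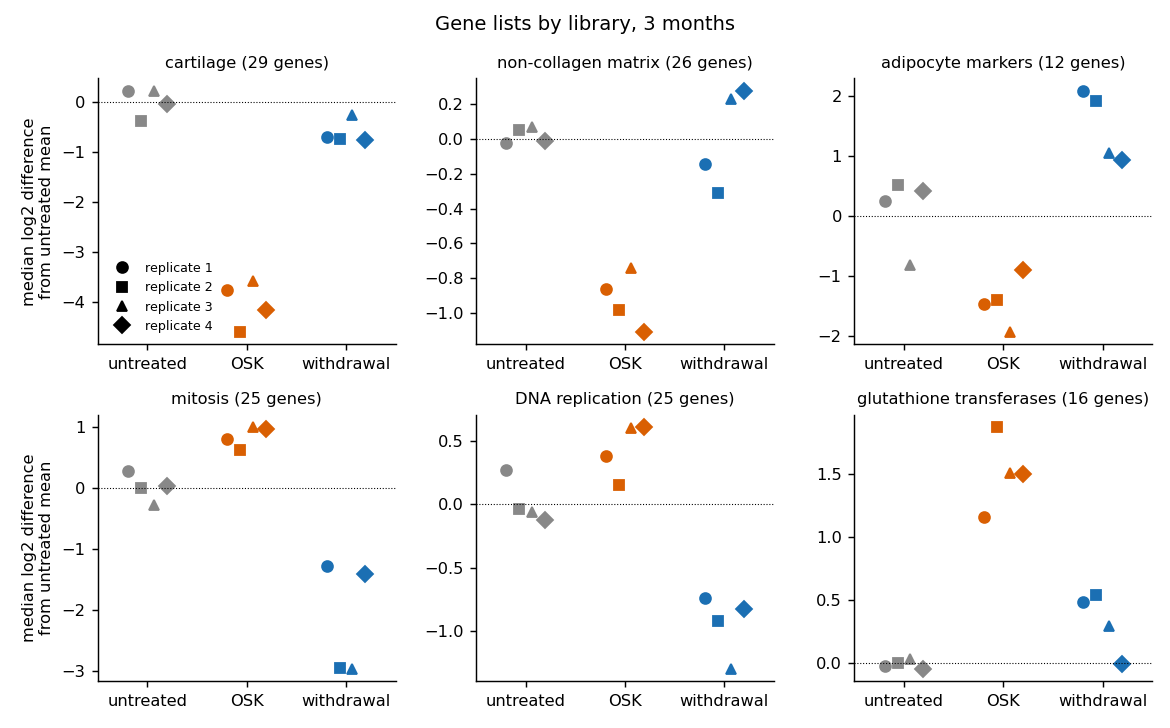
Median over each list's tested genes of the log2(value + 1) difference from the mean of the untreated 3-month libraries, for each library (symbols mark replicates 1 to 4). Mitosis medians in withdrawal replicates 2 and 3 were -2.95 and -2.97 against -1.28 and -1.42 in replicates 1 and 4; adipocyte medians were 2.09 and 1.91 in replicates 1 and 2 against 1.05 and 0.93 in replicates 3 and 4.

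Genes of TGF-beta, BMP and YAP signalling fell more often than they rose: 10 of 26 tested genes fell and 3 rose, with a median of -0.44, where 21.8% of all tested genes fell and 20.6% rose. Bmp4, a ligand, fell from 146 to 356 down to 14.3 to 30.7 normalized counts (log2 change -3.47 with an SE of 0.406, limma adjusted p = 6.67e-07), and its difference from untreated cells was -1.57 (limma adjusted p = 0.0166). Skil, an inhibitor that TGF-beta induces, fell by 2.20. Bambi, a decoy receptor, rose from 122 to 271 up to 760.5 to 985 (2.29), and the ligand gene Tgfb2 rose by 1.27. Among 17 immediate early and AP-1 genes 9 fell and 3 rose (median -0.55); 5 fell without withdrawal replicates 1 and 2. Egr2 fell from 1397 to 2680 down to 209 to 472 (-2.46) and Maff, a small MAF protein, changed by -2.11. Runx1, a transcription factor of blood and mesenchymal cells held in that list, rose from 1126 to 2461 up to 4726 to 8022 (1.93).

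Of 29 tested interferon response genes 10 rose and 1 fell, with a median of 0.48, where 20.6% of all tested genes rose. Without withdrawal replicates 1 and 2 only 4 of the 29 rose, in a fit that called 2081 of all 14138 tested genes higher. Ifi44 went from 7.50, 4.82, 0.970 and 9.69 normalized counts to 62.7, 147, 138 and 45.4 (log2 change 3.96, limma adjusted p = 0.00059), and Usp18, which dampens interferon signalling, rose by 2.67. Isg15, a ubiquitin-like protein, stood at 83.4, 55.4, 23.2 and 38.8 in OSK and at 253, 970.0, 351 and 79.0 in withdrawal replicates 1 to 4 (2.64, limma adjusted p = 0.00521; 0.107 without replicates 1 and 2), and its groups overlapped. Withdrawal replicates 2 and 3 were the highest for these 3 genes, and replicate 4 the lowest. Irf1 was the member that fell, by 0.89; 2 members fell without withdrawal replicate 2.

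Of 22 glycolytic genes 11 fell, 2 rose and 9 were not called, with a median of -0.46, where 21.8% of all tested genes fell. The count of falls was 7 without OSK replicate 2 and 6 without withdrawal replicates 3 and 4, and a single member rose without OSK replicate 2, 3 or 4, without withdrawal replicate 1 or without replicates 1 and 2. Gpi1, which makes fructose 6-phosphate, fell from 26227 to 36361 down to 12333 to 13739 (log2 change -1.2), and the hexokinases Hk2 and Hk1 changed by -1.27 and -0.84. Pkm, pyruvate kinase, went from 122007, 112279, 102137 and 116557 to 96501, 71546, 61788 and 67709 (-0.62, limma adjusted p = 0.00129). Ldhb, the heart form of lactate dehydrogenase, rose by 1.16. Genes of cholesterol synthesis and uptake gave 2 rises and 3 falls among 24, both under the shares of all genes, with 0 rises without withdrawal replicate 1, 1 without replicate 4 and 6 without replicate 3, and 1 fall without replicate 2. Genes of DNA methylation gave 3 rises and 2 falls among 10, and 1 rise without OSK replicate 4 or without withdrawal replicates 3 and 4. Over all tested genes 20.6% rose and 21.8% fell.

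**Figure D4:**
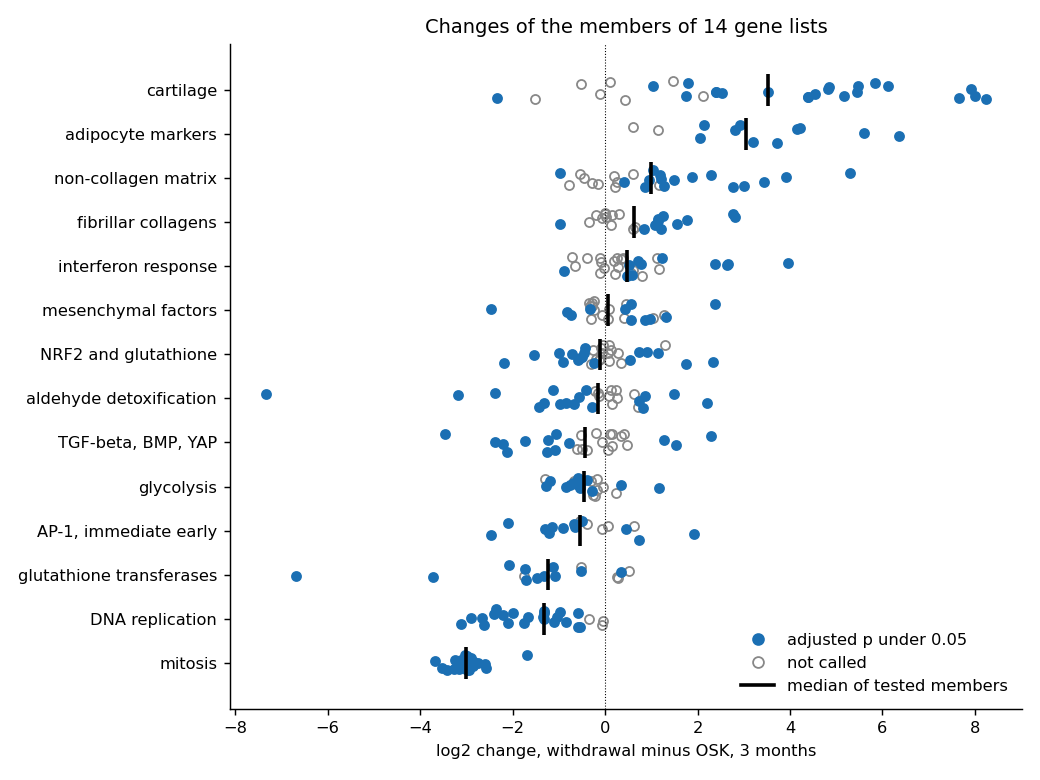
Log2 change from OSK to withdrawal at 3 months of each tested member of 14 gene lists (filled points have a limma adjusted p under 0.05, open points do not, bars mark the median of the tested members). The median was 3.53 for cartilage and -3.01 for mitosis, whose 25 members all lie under 0.

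Markers of other cell types did not move as one, and several of their counts lay near the 20.6% of all tested genes that rose or the 21.8% that fell. Of 10 tested keratinocyte markers 3 fell and 1 rose (5 fell with the replicate number as a block), and Krt14, a defining keratin of the basal layer, was under the filter; Itgb4, an integrin of hemidesmosomes, fell from 2314 to 5786 down to 309.6 to 504 (log2 change -3.11), and Perp changed by -1.71. Among 9 tested endothelial markers 4 rose and 1 fell, and 1 rose without OSK replicate 1, without withdrawal replicate 2 or without withdrawal replicates 1 and 2 (2 without withdrawal replicate 1). Erg, a transcription factor of endothelium and cartilage, rose from 34.4 to 164 up to 987 to 1588 (3.93), while Tek, the angiopoietin receptor, fell from 1258, 1798, 1307 and 1344 to 6.67, 56.8, 66.2 and 35.3 (-5.45). Leukocyte markers gave 1 rise and 2 falls among 9 (2 rises without OSK replicate 4 or with the replicate number as a block, none without withdrawal replicates 3 and 4), and Ptprc, which encodes CD45, was under the filter; Laptm5 fell from 40.3 to 563 down to 5.88 to 8.54 (-4.55) and Cd68 changed by -1.94. Of 10 Schwann cell and melanocyte markers 5 rose and 2 fell: Dct, a melanin enzyme, was at 0 in every OSK library and at 45.4, 6.86, 20.3 and 30.3 after withdrawal, while Ngfr, the low-affinity nerve growth factor receptor, fell by 3.39 and stayed 3.43 above untreated cells (limma adjusted p = 0.000668). Bone markers gave 3 rises among 11 and muscle markers none among 6. The muscle median, in log2 units from the untreated mean, was 1.07 in both withdrawal replicates 1 and 2. It was -0.22 and -0.18 in replicates 3 and 4, and -0.21 to 0.40 in OSK libraries. The summed level of the leukocyte list was 210.2 to 364 in withdrawal, 364 to 834 in OSK and 257 to 302 in untreated libraries. The median log2 change of its tested members was 0.44, so the sums do not give the direction of most members. What part such cells had in the results was not tested.

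Beyond the lists, the largest changes among the genes ranked joined genes of several kinds. H19 (chr7:142575530-142578146), an imprinted long noncoding RNA of fetal tissue, rose from 363, 485, 709 and 254 normalized counts to 36766, 56881, 50107 and 37315, a log2 change of 6.72 (limma adjusted p = 1.88e-11, SE 0.365), and its withdrawal range overlapped the 27373 to 36801 of untreated cells. C1qtnf3, a secreted protein of cartilage, rose from 3.21 to 34.9 up to 799 to 3434 (6.95), Cmtm5 from 0 to 13.1 up to 368 to 711 (6.53), and Kcna6, a potassium channel, from 11.2 to 44.1 up to 1725 to 2421 (6.37). Secreted modulators of growth factor signals were among them. Chrdl2, a BMP antagonist, and Sfrp5, a WNT antagonist, held no more than 3 reads in any OSK library and were at least 61.5-fold and at least 42.3-fold higher after withdrawal. Prl2c2, proliferin, rose from 0.8 to 6.17 up to 96.1 to 766 (6.19), though reads of its near-identical gene copies may be shared in the authors' counting.

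On the falling side, Mlc1, a membrane protein of astrocytes, stood at 203, 477, 533 and 407 normalized counts in OSK cells and held no more than 3 reads in any withdrawal library, at least 128-fold lower. Ecel1, a neuronal peptidase, and Defb1, a defensin, were at least 48.2-fold and at least 52.1-fold lower by the same reckoning. Crym, a crystallin that binds thyroid hormone, went from 166 to 469 down to 8 in withdrawal replicate 1 and 0 in the other three (log2 change -7.09). Nppb, the natriuretic peptide BNP, went from 128 to 262 down to 5.88 in replicate 2 and 0 elsewhere (-6.67), Kcnf1, a potassium channel, from 251 to 335 down to 0.840 to 5.34 (-6.49), and Phyhip from 217 to 929 down to 1.96 to 9.61 (-6.26). All were low in untreated cells too, where Phyhip reached at most 8.49 and Nppb was listed at 0 in each library.

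Gains and losses by difference of means were ranked among called genes, again without predicted genes, clones, pseudogenes and mitochondrial genes. Those that gained most were Igfbp5, Col2a1, Lox, Col3a1, Vim and Gas6. Gas6, a ligand of TAM receptors, rose from 27274 to 42014 up to 116371 to 138112 normalized counts (log2 change 1.95). Of the called genes ranked, those that lost most were Ahnak, Prelp, Pkm, Igfbp3, Myh9 and Fbln5. Ahnak, a giant scaffold protein under the membrane, fell from 60257, 84430, 105025 and 95001 to 21847, 15503, 40286 and 40421 (-1.63), Prelp, a matrix protein, changed by -1.61 and Myh9, nonmuscle myosin, by -1.0.

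Fewer genes separated withdrawal libraries from untreated ones. Between withdrawal and untreated libraries 1355 genes (9.58%) were called, 567 higher (4.01%) and 788 lower (5.57%). That count depended on single libraries: it was 712 without untreated replicate 1, 873 without untreated replicate 3 and 631 without withdrawal replicate 2, and it was 582 without withdrawal replicates 1 and 2 and 3059 without replicates 3 and 4. The contrast shares its withdrawal libraries with the one above, so only levels are set side by side. Ptn, the growth factor pleiotrophin, stood at 1271, 2183, 941 and 1613 normalized counts in untreated cells, at 7940, 8763, 8149 and 8449 in OSK cells and at 8998, 20359, 13195 and 15571 after withdrawal. Its level thus rose again after OSK was off, by 0.74 (limma adjusted p = 0.0299), to 3.28 above untreated cells (limma adjusted p = 2.33e-07). Pde9a, a phosphodiesterase of cyclic GMP, and Stac2 fell on withdrawal, to 44.0 to 99.0 and 273 to 692, and stood 2.67 and 2.60 above untreated cells. Pde9a lost this second call without untreated replicate 4 (limma adjusted p = 0.0505), without withdrawal replicate 2 (0.0602), without withdrawal replicates 1 and 2 (0.11) and with only the groups compared (0.0562).

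Among the genes named for a level under that of untreated cells, the path differed. Gal3st2, a galactose sulfotransferase, and Eln were low in OSK cells and rose in part: Gal3st2 stood at 98.7 to 400.4 in untreated, 0.880 to 7.75 in OSK and 9.80 to 28.0 in withdrawal libraries, a difference from untreated cells of -3.32 (limma adjusted p = 0.000537). Plk3, a stress-response kinase, and Erfe, the hormone erythroferrone, fell on withdrawal. Plk3 stood at 332, 350.5, 229 and 116 in untreated cells, at 159 to 183 in OSK cells and at 40.0, 24.5, 18.2 and 30.3 after withdrawal (log2 change -2.61 from OSK and -3.07 from untreated cells), and Erfe at 59.4 to 91.8, 49.7 to 156 and 0.980 to 22.7.

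Withdrawal libraries varied more than OSK libraries. The median over tested genes of the SD of log2 values was 0.299 among the 4 withdrawal libraries and 0.182 among the 4 OSK libraries. Such spreads were ranked among called genes with a withdrawal mean of at least 50, without predicted genes, clones, pseudogenes and mitochondrial genes. Prokr1, a receptor of prokineticins, had the largest, at 22.7, 232, 350.3 and 356 normalized counts against 0 to 33.7 in OSK cells (log2 change 3.79, limma adjusted p = 0.00389, and 0.0841 without withdrawal replicates 3 and 4). Peg3, a paternally expressed imprinted gene, stood at 66.7, 75.4, 874 and 159.7 (2.38, limma adjusted p = 0.00545; 0.123 without replicates 3 and 4). Replicate 1 was low for Prokr1 and replicate 3 high for Peg3. Msln, mesothelin, stood at 48.0, 159, 16.0 and 11.8 (-5.10) and Kif14, a mitotic kinesin, at 52.0, 6.86, 35.2 and 113 (-3.47), and for these the groups did not overlap.

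At 24 months 6502 genes (46.0%) were called, 3300 higher (23.3%) and 3202 lower (22.6%). The libraries compared there were not those of the 3-month contrast. All 24 libraries set each gene's spread in the same fit, however, so the calls at the 2 ages are not fully separate. With only the groups compared in each fit the counts were 5471 at 24 months and 5476 at 3 months. In all, 4234 genes were called in the same direction at both ages, 70.7% of the calls at 3 months and 65.1% of those at 24 months, and 34 were called in opposite directions. Across the 14138 tested genes the log2 changes at the 2 ages had a Pearson r of 0.834 and a Spearman rho of 0.755, a description over genes, which are not independent and share the scaling of the table. Gsta4 changed by -3.43 at 24 months and by -3.72 at 3 months, Aldh3a1 by -7.08 and -7.34, H19 by 7.12 and 6.72, and Mki67 by -3.61 and -3.67. The mitosis list fell in 25 of 25 members at both ages, with medians of -3.24 and -3.01.

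The difference of the change between ages was tested as an interaction in the same limma model. It was called for 445 genes (3.15%), 301 with a more positive change at 24 months and 144 with a more negative one. This count was unstable: it was 906 with the replicate number as a block, 273 without withdrawal replicate 1 at 3 months, 288 without replicate 2, 704 without replicate 3, 287 without OSK replicate 3, 788 without withdrawal replicate 1 at 24 months and 283 without replicate 4, and it was 143 without withdrawal replicates 1 and 2 at 3 months and 2229 without replicates 3 and 4. Neither Gsta4 (0.29, limma adjusted p = 0.732) nor Pou5f1, Sox2 or Klf4 was called. Col14a1, a collagen that decorates fibrils, rose by 2.76 at 3 months and by 8.03 at 24 months, a difference of 5.27 (limma adjusted p = 0.000208); its mean was 479.5 in OSK cells and 2773 after withdrawal at 3 months, and 17.9 and 5103 at 24 months. Megf6 rose by 3.45 and 8.62, a difference of 5.17. Pgm5, a cytoskeletal relative of phosphoglucomutase, rose by 2.72 at 3 months and was at least 131-fold higher at 24 months, where no OSK library held more than 3 reads; its fitted difference of 5.42 depends on the pseudocount. Angpt4, an angiopoietin, changed by -0.22 and 5.69, a difference of 5.91 (limma adjusted p = 4.23e-05), with means of 44.5 in OSK and 39.5 in withdrawal cells at 3 months, against 2.02 and 115 at 24 months.

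In the other direction Fgf4, Trh, Plekhs1 and Rbfaos fell more at 24 months. Fgf4 had a mean of 53.6 normalized counts in OSK cells at 3 months and of 653 at 24 months, and was at 0 in all 4 withdrawal libraries at 24 months, at least 202-fold lower there. Its fitted difference of the change, which depends on the pseudocount, was -4.26 (limma adjusted p = 0.0029). Trh, thyrotropin-releasing hormone, had means of 62.9 in OSK and 1.67 in withdrawal cells at 3 months, against 1695 and 1.03 at 24 months (-5.03, limma adjusted p = 0.0102; 0.0604 without withdrawal replicates 1 and 2 at 3 months). Trh held at most 3 reads in each of these 24-month withdrawal libraries, at least 523-fold lower than OSK, and its fitted difference also depends on the pseudocount. For both genes the OSK means differed far more between ages than the withdrawal means did. Rbfaos, an RNA on the strand opposite Rbfa, changed by -1.80 and -6.76 (a difference of -4.96); its reads and those of Rbfa cannot be told apart without strand, which was not given in the sources used here. Plekhs1 gave -5.03 (limma adjusted p = 0.0385), a call lost with edgeR, DESeq2, a pseudocount of 0.5 or only the groups compared, and without OSK replicate 1 or 4 or withdrawal replicate 1 or 2 at 3 months, or OSK replicate 1 or 2 or withdrawal replicate 2 or 3 at 24 months. Fgf4, Trh and Pgm5 were not called by edgeR on recovered reads (adjusted p of 0.0805, 0.372 and 0.0684), nor Trh by DESeq2 (0.141). Among genes named above, the change of Postn (3.17), Ptn (2.22), Col3a1 (1.26) and Sox9 (1.14) was more positive at 24 months, and that of Tdh (-4.17), Fbln5 (-0.82), Pkm (-0.81) and Gpi1 (-0.69) more negative.

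**Figure D5:**
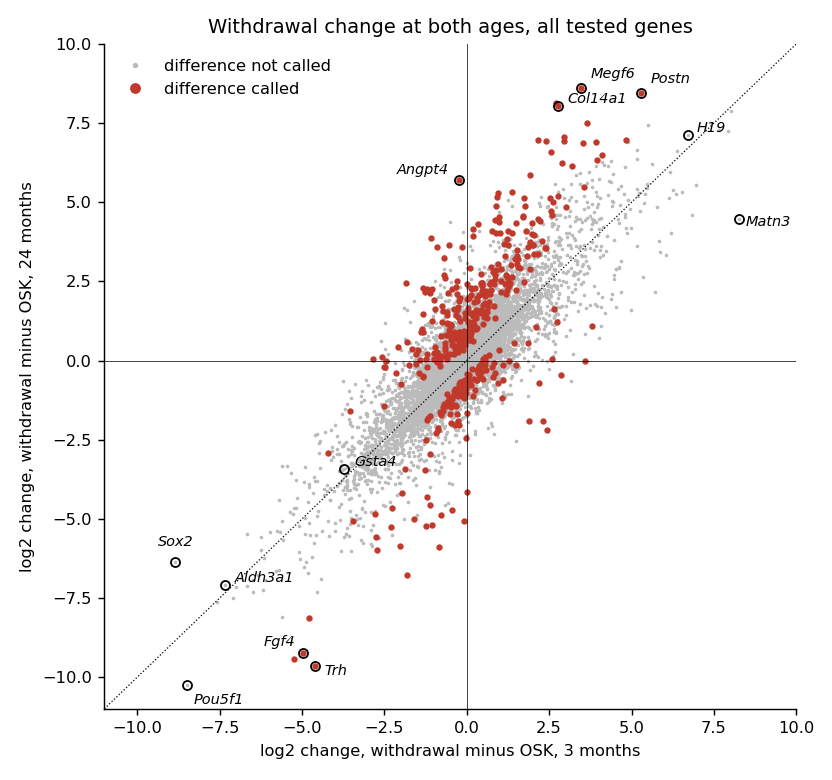
Log2 change from OSK to withdrawal at 3 months (x) and at 24 months (y) for all 14138 tested genes; red points have a called difference between ages (445 genes), grey points do not, and the dotted line marks equal change. Most genes lie near the line, and Angpt4, Col14a1, Megf6, Fgf4 and Trh are among those that leave it.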

How the data were processed

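RNA of 24 libraries in 6 groups of 4 was described in the series' table. The authors deposited values per gene that are read counts divided by a library's scaling factor, a signal on the scale of counts; whole reads were recovered from the steps of the low values. The submitters' processing notes name STAR 2.7.1a, featureCounts 1.6.2 and the builds GRCh38 and GRCm38; the annotation, strand setting and normalizing tool were not given in the sources used here. Groups were taken from the sample labels. limma 3.58.1 (R 4.3.3) was fitted to log2(value + 1) with 1 coefficient for each group over all 24 libraries, with a trended, robust prior, for genes that reached 10 normalized counts in 4 or more libraries, with Benjamini-Hochberg adjustment over every gene tested. edgeR 4.0.16 and DESeq2 1.42.0 on recovered reads, other pseudocounts, filters and scalings, the replicate number as a block and leaving out each library were alternatives. The model was tested on simulated data.

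Depth was 20693177 to 32587822 recovered reads per library in the withdrawal and OSK groups at 3 months; a count of 0 or a few reads is set by depth, and the replicate tests carry the spread between libraries. A group with at most 3 reads in every library was held at a floor of 3 reads per library. Replicate numbers in the titles and shared library name endings link libraries across groups. Deviations from the group means of same-numbered withdrawal and OSK libraries at 3 months correlated at 0.213, 0.111, 0.196 and 0.109. Libraries with different numbers gave -0.190 to 0.151, the highest between withdrawal replicate 3 and OSK replicate 2. The numbers were thus held as a possible pairing, used as a block in an alternative fit. The main fit had no block, so its p-values take no account of such a pairing. The genes named were the factors and Gsta4, the 12 largest called rises and falls, the 6 largest by difference of means, up to 4 called members per direction and 3 abundant uncalled members of each list, and 4 genes each by age difference, level against untreated cells and spread. Predicted genes, clone names, pseudogenes and mitochondrial genes were left out of these rankings, except within lists. The comparison, the gene lists and their members were chosen with earlier results of these data known. Promoter sequences are from RefSeq, GRCm38.p6. Images were drawn from the values reported.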

Additional observations from a re-analysis of the deposited data

Results flagged for a closer look

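In groups of 4 libraries, a library was marked where its gap to the nearest other, divided by the range of the group, passed Dixon's critical value for 4 samples. Of 249 groups of 4 examined over the 125 genes named or considered, 18 passed, where chance marks about 1 in 20. Among withdrawal libraries, replicate 1 stood apart for Crym (1.000), Trh (1.000), Pgm5 (0.904), Stac2 (0.888), Dcn (0.849) and Prokr1 (0.843). Replicate 2 stood apart for Nppb (1.000), replicate 3 for Perp (0.879) and Col9a2 (0.843), and replicate 4 for Fgf4 (1.000). In Crym, Nppb, Trh and Fgf4 the value of 1.000 came from 1 library with a few reads beside 3 at 0. Among OSK libraries, replicate 1 stood apart for Fbln5 (0.852), Nanog (0.845), Myh9 (0.843) and Pgm5 (0.842), replicate 2 for Ccl2 (0.967), Col14a1 (0.906) and Fgf4 (0.843), and replicate 3 for Cnmd (0.835).

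The change on withdrawal differed between ages by the limma interaction test for 16 genes of the text. The difference, 24 months minus 3 months on the log2 scale, was 5.91 for Angpt4, 5.42 for Pgm5, 5.27 for Col14a1, 5.17 for Megf6, 3.17 for Postn, 2.22 for Ptn, 1.26 for Col3a1 and 1.14 for Sox9. It was -5.03 for Trh and for Plekhs1, -4.96 for Rbfaos, -4.26 for Fgf4, -4.17 for Tdh, -0.82 for Fbln5, -0.81 for Pkm and -0.69 for Gpi1. For Pgm5, Fgf4, Tdh and Trh, with a group at or under 3 reads in every library at 24 months, the size depends on the pseudocount.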

How the results depend on the processing

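The 5988 calls between withdrawal and OSK at 3 months became 5175 to 6316 under the other settings and with 1 library left out, with 6316 under the replicate block; of the 2909 higher and 3079 lower genes, 2060 and 2322 kept their call in every one of these. The 1355 calls against untreated cells became 1831 under the replicate block and 631 to 1666 without 1 library. They became 582 and 3059 without withdrawal replicates 1 and 2 or 3 and 4, an alternative chosen after seeing the data. The 445 differences between ages became 906 under the replicate block, 849 with DESeq2, 273 to 788 without 1 library, and 143 and 2229 without those pairs; the cause of these moves was not tested. Of 130 gene results checked, 115 kept their direction and side of the threshold, and none reversed. Each gene was checked only in the contrast it was picked for. The differences from untreated cells of Klf4, Lox and Bmp4, among others, were therefore not checked under other settings. Nor were the age differences of Postn, Ptn, Col3a1 and Sox9, among others. With the replicate block Pparg was called, as it was in both fits on fewer libraries without it, and no other gene result among those checked changed its call under the pairing by replicate number. Genes near the floor of 3 reads are limited by depth.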
